A study of Homo sapiens with 12 samples.

Results

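Mature miRNAs are short RNAs of the Argonaute silencing complex, which they guide to messenger RNAs mainly through the seed, bases 2 to 8 from the 5′ end. Small RNA libraries, those from vesicles included, also hold pieces of ribosomal, transfer and other structured RNAs, and a short read of such a piece is counted under a miRNA name when it matches a catalogued miRNA sequence. Catalogue entries that are short and made almost wholly of G and C have been discussed as places where such reads gather. The entries described here are 7 of that kind, chosen by name: hsa-miR-4488, hsa-miR-4516, hsa-miR-3960, hsa-miR-7704, hsa-miR-10400-5p, hsa-miR-10396a-5p and hsa-miR-10396b-5p. They are 7 of the 153 entries listed in at least 1 of the 2 deposited count tables. The parental table lists 6 of them among its 137 entries, the CSC-like one also 6 among its 114, and 5 are listed in both.

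The libraries were made from RNA of exosomes, small vesicles that cells release, from MDA-MB-231, a line of human breast adenocarcinoma. The 4 groups of 3 libraries were untreated parental cells, parental cells given 56 µM cisplatin for 48 h, untreated sorted CSC-like cells, and sorted CSC-like cells given the same dose for the same time. Cisplatin, a platinum compound, forms crosslinks in DNA; CSC-like stands for cancer stem cell-like, and the sources used here name no sorting markers. All cells of the 4 groups were kept in serum depleted of exosomes. All groups come from 1 cell line, and the labels do not say whether the replicates are separate cultures, so every p-value measures only the spread between these libraries, which may be technical.

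The parental libraries held 2648 to 6622 listed counts each, and the CSC-like libraries 429 to 2522. In the cisplatin-treated CSC-like group, a chi-square test found no difference above sampling noise between replicates 2 and 3 (p = 0.212), which were counted as 1 sample. That group therefore has n = 2, and correlations across libraries have 11 samples. In the cisplatin-treated parental group, replicates 2 and 3 were also close (chi-square p = 0.012, 1.48 per degree of freedom beside 1.18). They were kept apart, so the n = 3 of that group includes a nearly alike pair. Of 4 miRNAs taken as abundant in this line (miR-21-5p, miR-100-5p, miR-146a-5p and miR-221-3p), all were listed in both tables, and together they held 50.1% to 60.5% of a library's counts. Of 6 blood cell and serum miRNAs, 3 were listed in each table, with a summed share from 0% to 0.466%. Of the 5 epithelial miR-200 family members, 2 were listed in each table, with a summed share from 0% to 0.373%.

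The sequences of 5 members are shown for their make-up and their seeds. They are printed as deposited, in DNA letters, with the seed in capitals. The sequence of hsa-miR-10400-5p is not printed. The 5 printed were matched to mature sequences of RefSeq and were identical to them once U was written as T.
hsa-miR-4488: aGGGGGCGggctccggcg
hsa-miR-4516: gGGAGAAGggtcggggc
hsa-miR-7704: cGGGGTCGgcggcgacgtg
hsa-miR-10396a-5p: gGCGGGGCtcggagccggg
hsa-miR-10396b-5p: cGGCGGGGctcggagccggg

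The 7 sequences had a median of 89.5% G and C, from 76.5% in hsa-miR-4516 to 95% in hsa-miR-3960, and were 17 to 21 bases long. The 146 other listed entries had a median of 50% G and C and a median length of 22 bases. Of those 146 entries, 7 reached 70% G and C. No member shared its seed with another member. The seed of hsa-miR-10396a-5p was also that of the listed entry hsa-miR-744-5p. The whole 19 bases of hsa-miR-10396a-5p lie within hsa-miR-10396b-5p, so a read of these bases does not tell the 2 names apart.

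In GRCh38 (RefSeq positions, plus strand in each case), hsa-miR-4488 lies at chr11:61508599-61508616 in MIR4488, outside any other gene of the GENCODE annotation used. hsa-miR-4516, which has been reported to target STAT3 in human keratinocytes, lies at chr16:2133120-2133136, within the PKD1 gene on the opposite strand and outside its exons. hsa-miR-7704 lies at chr2:176188843-176188861, inside the coding part of exon 1 of HOXD1 and antisense to exon 1 of the long noncoding RNA HAGLR. hsa-miR-10396a-5p lies at chr21:8987617-8987635. hsa-miR-10396b-5p lies at chr21:8436324-8436343, within RNA45SN1, a ribosomal RNA precursor gene at chr21:8433222-8446572. Of the 5 members placed here, it was the only one whose annotated hairpin lay in a ribosomal RNA precursor gene of that annotation. Among 206694 GENCODE transcripts, 554 of them of ribosomal RNA type, the only exact match of the 5 sequences outside their own genes was that of hsa-miR-7704 in HOXD1. The sequence of the ribosomal RNA precursor itself was not searched here, so the likeness to structured RNA rests on base composition, length and this 1 position.

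The summed share of the members varied widely between replicates of every group and overlapped between all groups. Untreated parental libraries held 19.3%, 2.27% and 7.19% of their counts in the 7 members (mean 9.60% ± 8.79, SD, n = 3). Cisplatin-treated parental libraries held 13.9%, 5.10% and 5.22% (8.08% ± 5.06, SD, n = 3). Untreated CSC-like libraries held 8.13%, 22.0% and 6.62% (12.3% ± 8.48, SD, n = 3), and cisplatin-treated CSC-like libraries 18.2%, 2.40% and 3.49% (10.6% ± 10.8, SD, n = 2). Within each group 1 library stood well above the others: replicate 1 in 3 groups and replicate 2 in the untreated CSC-like group. Without that library the mean share was 4.73% in untreated and 5.16% in cisplatin-treated parental libraries, and 7.37% in untreated and 2.95% in cisplatin-treated CSC-like libraries, the last being a single sample. Counting error was much smaller than these gaps. The exact 95% interval was 18.04% to 20.7% in untreated parental replicate 1 and 1.73% to 2.91% in replicate 2 of that group. No molecular identifiers are stated, so the intervals and the limits given for a count of 0 cover counting error only. The 4 libraries with the highest shares held 3527, 6622, 2172 and 429 listed counts. They included both the deepest and the shallowest library of the series. A share of counts does not tell more of these sequences from less of the other RNA, nor more vesicles carrying them from more copies per vesicle.

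**Figure D1:**
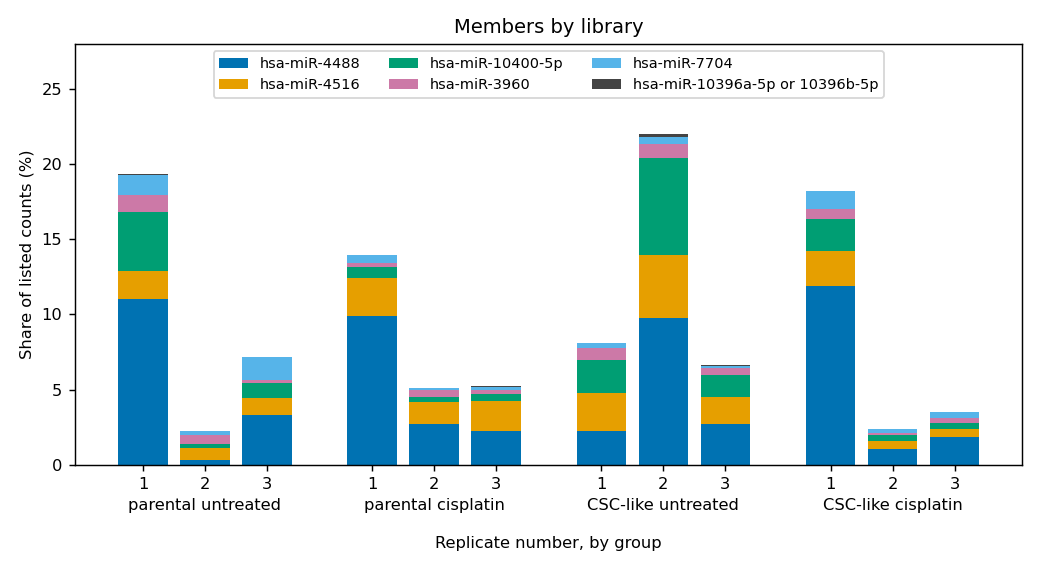
Share of each library's listed counts (%, stacked bars) held by each member, by replicate number within the 4 groups. In every group 1 bar is far above the others, from 13.9% to 22.0%, and no group is clear of another.

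hsa-miR-4488 led the set and was its most variable entry. Its counts were 390, 9 and 132 in untreated parental libraries and 657, 95 and 88 in cisplatin-treated ones, or 11.1%, 0.340%, 3.30%, 9.92%, 2.67% and 2.24% of the listed counts. In the CSC-like table its counts were 34, 212 and 68 without and 51, 19 and 29 with cisplatin, or 2.23%, 9.76%, 2.70%, 11.9%, 1.01% and 1.84%. It was the most abundant member in 10 of the 12 libraries and hsa-miR-4516 in the other 2, untreated parental replicate 2 and untreated CSC-like replicate 1. Its highest share was 35.0 times its lowest. Its SD within groups was 1.76 on the log2 CPM scale (listed counts scaled to a common total), the largest among the 48 entries tested across both tables, whose median SD was 0.824. The let-7 members let-7f-5p, let-7g-5p and let-7a-5p came next, at 1.60, 1.59 and 1.52. Over the 16 non-members among the 20 most abundant entries, the median SD was 1.025.

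hsa-miR-10400-5p had the second largest spread of the set, with an SD of 1.25 and rank 8 of 48. Its counts were 137, 8 and 40 in untreated and 46, 12 and 19 in cisplatin-treated parental libraries, and 33, 140 and 38 and 9, 8 and 7 in the CSC-like groups. It was high in the same untreated libraries as hsa-miR-4488, at 3.88% in parental replicate 1 and 6.45% in CSC-like replicate 2.

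hsa-miR-4516 was steadier, with an SD of 0.738 (rank 34). Its counts were 65, 20 and 45 in untreated and 167, 53 and 77 in cisplatin-treated parental libraries, and 39, 91 and 45 and 10, 10 and 8 in the CSC-like groups. Its share lay between 0.508% and 4.19% over the 12 libraries. hsa-miR-3960, studied in mouse osteoblast differentiation, with an SD of 0.762 (rank 33), had 41, 16 and 8 counts, then 19, 16 and 12, then 12, 21 and 12, and then 3, 3 and 5 in the same order of groups. Its share lay between 0.160% and 1.16%.

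hsa-miR-7704 had 47, 7 and 63 counts in untreated parental libraries and 33, 5 and 8 in cisplatin-treated ones. In the CSC-like groups it had 6, 10 and 3 and 5, 4 and 6. Its shares of 1.33% and 1.57% in untreated parental replicates 1 and 3 were the highest of the series, and the 0.264% of replicate 2 fell among those of the cisplatin-treated libraries (0.498%, 0.141% and 0.204%).

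The remaining 2 members were near the limit of detection. hsa-miR-10396b-5p had 2, 0 and 0 and then 0, 0 and 1 counts in the parental libraries. hsa-miR-10396a-5p had 0, 4 and 1 and then 0, 1 and 0 in the CSC-like libraries. With 3 counts taken as the limit behind a count of 0, such an entry could still hold 0.0453% of the deepest library and 0.699% of the shallowest. Neither name passed the filter on low counts, and since each is listed in 1 table only, no comparison between the cell populations was made for them.

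**Figure D2:**
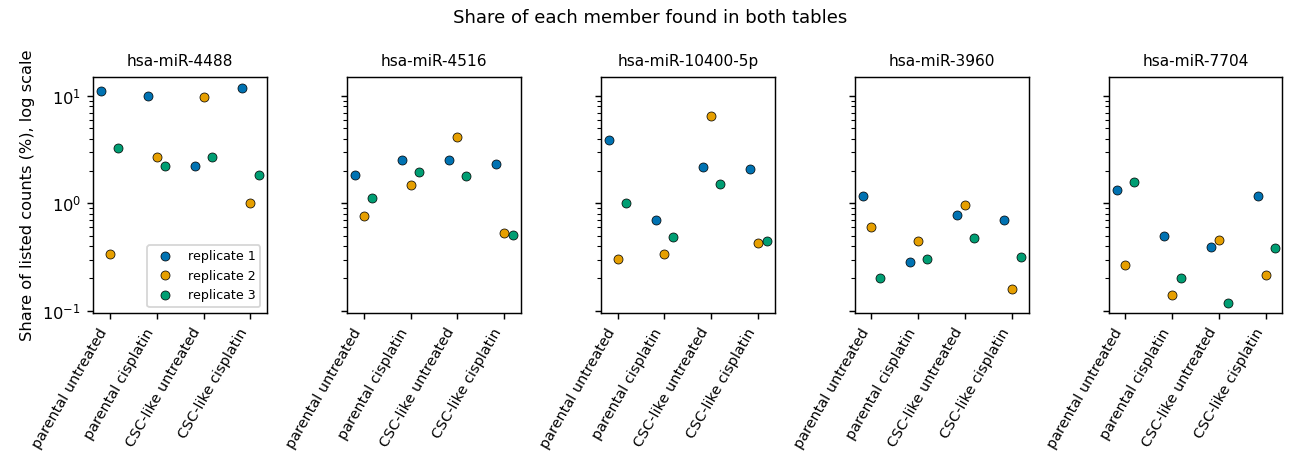
Share of listed counts (%, log scale) of the 5 members found in both tables, 1 point per library, coloured by replicate number, in the 4 groups. hsa-miR-4488 runs from 0.340% to 11.9% and hsa-miR-4516 from 0.508% to 4.19%. In the 4 comparisons of groups made here, each member's groups overlap. Cisplatin-treated parental and untreated CSC-like libraries, whose difference was not tested, lie apart for hsa-miR-10400-5p (0.338% to 0.695% against 1.51% to 6.45%). They also lie apart for hsa-miR-3960 (0.287% to 0.4505% against 0.476% to 0.967%) and overlap for the other members shown.

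For cisplatin in parental cells, no member passed edgeR's quasi-likelihood test at an adjusted p of 0.05: 0 of the 5 tested members, beside 2 of all 37 entries tested (5.41%). At an unadjusted p under 0.05 the count was 2 members, hsa-miR-7704 and hsa-miR-10400-5p, of 6 entries in all. The log2 fold change of hsa-miR-7704 was -2.21 ± 0.756 (SE; edgeR adjusted p = 0.0871). That of hsa-miR-10400-5p was -2.14 ± 1.00 (adjusted p = 0.244) and that of hsa-miR-3960 was -1.26 ± 0.681 (adjusted p = 0.276). Without untreated parental replicate 1 both were smaller, at -0.81 and -0.77 (both edgeR adjusted p = 0.623). hsa-miR-4488 stood at -0.42 ± 1.18 and hsa-miR-4516 at 0.34 ± 0.990 (both adjusted p = 0.843). The members' median was -1.26, beside -0.27 over all entries tested. The call for hsa-miR-7704 depended on the method: it passed with DESeq2's Wald test (log2 fold change -2.10, adjusted p = 0.0272), in the fit over 4 groups (-2.73, edgeR adjusted p = 0.0350) and without untreated parental replicate 2 (-2.60, edgeR adjusted p = 0.0118), the library in which it was low. Those settings called 4 of 37, 7 of 48 and 8 of 43 entries in all. Over all 15 alternatives the adjusted p of hsa-miR-7704 ran from 0.0118 to 0.564.

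For cisplatin in CSC-like cells, of the 4 members that passed the filter, 0 passed edgeR's test, beside 1 of 29 entries (3.45%). DESeq2 also called 0 of those members. hsa-miR-7704, with 3 to 10 counts per library there, was below the filter. At an unadjusted p under 0.05 the count was 1, hsa-miR-10400-5p, beside 2 of the 29 entries (6.90%). Its log2 fold change was -1.83 ± 0.873 (edgeR adjusted p = 0.561). hsa-miR-4516 stood at -1.32 ± 0.859 (adjusted p = 0.923), hsa-miR-3960 at -1.08 ± 1.03 and hsa-miR-4488 at 0.12 ± 0.717 (both adjusted p = 0.990). hsa-miR-10400-5p was at -0.72 without untreated CSC-like replicate 2 (edgeR adjusted p = 0.987), and hsa-miR-3960 at -0.59 without that library and at -0.43 without cisplatin-treated replicate 2 (adjusted p = 0.987 and 0.984). hsa-miR-4516 lay between -1.97 and -0.76 when 1 library was left out. The members' median was -1.20, beside -0.15 over all 29 entries. With 51 counts in the shallow replicate 1 against 19 and 29 in the deeper pair, the sign for hsa-miR-4488 turned without replicate 1 (-1.32). In the authors' deposited table, the signed fold for hsa-miR-3960 was -2.61, which is a ratio and not a log2 value. That table lists the 3 treated libraries apart, with 3, 3 and 5 counts of hsa-miR-3960. Its deposited p-value of 0.000861 became 0.0318 when adjusted over the 114 entries, of which 4 then lay under 0.05. The authors' deposited table gives hsa-miR-4516 a signed fold of -3.92, with p = 0.00369 (0.0841 adjusted). The other members had adjusted values of 0.583 or more in the authors' deposited tables. Signed folds there for hsa-miR-4488, -1.91 in CSC-like and 1.01 in parental exosomes, were opposite in sign to the edgeR values.

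The response of CSC-like cells was set against that of parental cells as an interaction term. edgeR called 0 of 5 members, beside 1 of 48 entries (2.08%), and DESeq2 called 0. At an unadjusted p under 0.05 the count was 1, hsa-miR-7704, beside 5 of the 48 entries (10.4%). This member was below the filter in the fit of CSC-like cells alone. Its difference of log2 fold changes was 3.70 ± 1.34 (edgeR adjusted p = 0.142). Without cisplatin-treated CSC-like replicate 1, the library of 429 counts, it was 1.94 ± 1.34 (edgeR adjusted p = 0.874). Differences for hsa-miR-4488 (1.32 ± 1.40), hsa-miR-10400-5p (1.11 ± 1.63), hsa-miR-3960 (0.63 ± 1.25) and hsa-miR-4516 (-1.07 ± 1.64) were within 1 SE of 0.

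Between the cell populations, untreated, edgeR called 0 of 5 members, beside 1 of 30 entries (3.33%), and DESeq2 called 0. hsa-miR-7704 was the 1 member with an unadjusted p under 0.05, beside 5 of the 30 entries (16.7%). Its log2 fold change in CSC-like against parental exosomes was -2.48 ± 1.06 (edgeR adjusted p = 0.152). It passed in the fit over 4 groups (-2.65, edgeR adjusted p = 0.0279), where 5 of 48 entries were called. Its untreated counts overlapped between the populations only through parental replicate 2. The other 4 members lay between -0.94 ± 1.13 (hsa-miR-4488) and 0.48 ± 1.20 (hsa-miR-4516). With cisplatin in both populations, edgeR called 0 of 5 members, beside 1 of 42 entries (2.38%), and DESeq2 called 0 members. Under an unadjusted p of 0.05 there were 0 members, beside 2 of the 42 entries (4.76%). Log2 fold changes there ran from -0.66 ± 0.877 for hsa-miR-4516 to 1.08 ± 0.720 for hsa-miR-10400-5p. The 4 comparisons of groups share libraries with one another, so their values are not independent.

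**Figure D3:**
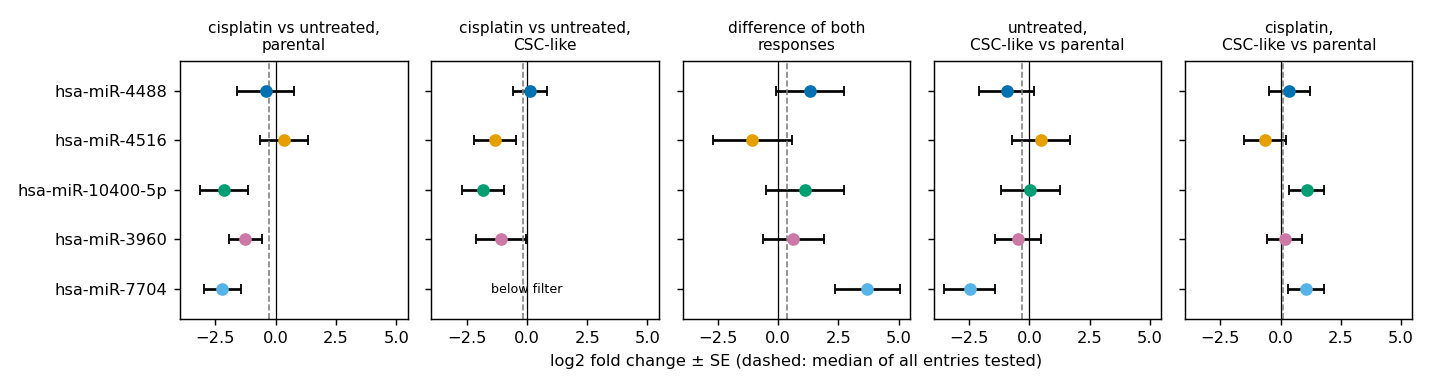
Log2 fold changes (points) with SE (bars) of the 5 members found in both tables, in the 5 edgeR comparisons; the dashed line is the median of all entries tested. hsa-miR-7704 lies farthest from 0 in parental cells (-2.21), in the difference of both responses (3.70) and between the untreated populations (-2.48), and no point passed an adjusted p of 0.05.

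Taking replicate number as a factor beside the group, with all 12 libraries apart, edgeR called 0 of 5 members, beside 0 of 40 entries (0%). By edgeR's unadjusted p, 1 member (hsa-miR-4488) and 2 of the 40 entries lay under 0.05. hsa-miR-4488 was 1.99 lower on the log2 scale in replicates numbered 2 than in those numbered 1 and 2.11 lower in those numbered 3 (F test, edgeR adjusted p = 0.519). The other 4 members were also lower in both numbers than in number 1, by 0.57 to 1.62, with adjusted p of 0.599 to 0.779. Without the cisplatin-treated CSC-like group, which holds the pair that did not differ beyond sampling noise, no entry had an unadjusted p under 0.05. Same-numbered libraries did not deviate together in every pair of groups: for replicates 1, 2 and 3 in turn, r of the deviations from the group means was 0.41, 0.44 and -0.014 between the parental groups, -0.69, -0.68 and 0.53 between the CSC-like groups, -0.097, -0.51 and -0.18 between the untreated groups, and 0.38, 0.32 and 0.016 between the cisplatin-treated groups, over 22 to 37 entries. The main fits did not pair samples by number. Deviations from means of 3 libraries are tied to one another, so these values cannot decide whether same-numbered libraries belong together.

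Members tended to be high in the same libraries, but no pair passed the test across samples. Over the 10 pairs of the 5 members, Pearson r of log2 CPM (prior count 2) was above 0 in 10, with a median of 0.53 and a range of 0.14 to 0.72. Over all 1128 pairs of the 48 entries tested the median was 0.02, with 583 above 0. In the 215 pairs of a member with a non-member the median was -0.19. Benjamini-Hochberg adjusted permutation p-values called 0 of the 10 member pairs, beside 3 of 1128 (0.266%). The count at an unadjusted permutation p under 0.05 was 4 of 10, beside 152 of 1128. Shares of 1 library are tied through their common total, which lowers r between abundant entries and others.

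hsa-miR-4488 and hsa-miR-4516 had r = 0.72 (permutation p = 0.0139, adjusted 0.254) and rho = 0.49 (permutation p = 0.131, adjusted 0.613), n = 11. Leaving out the 2 samples farthest from the median of hsa-miR-4488 gave r = 0.63. hsa-miR-10400-5p had r = 0.69 with hsa-miR-4488 (permutation p = 0.0176, adjusted 0.271; rho = 0.63, p = 0.0428, adjusted 0.474), 0.70 with hsa-miR-4516 (permutation p = 0.0152, adjusted 0.263; rho = 0.71, p = 0.0183, adjusted 0.374) and 0.70 with hsa-miR-3960 (permutation p = 0.0190, adjusted 0.271; rho = 0.65, p = 0.0362, adjusted 0.454). Without untreated parental replicate 1 and untreated CSC-like replicate 2, the 2 samples farthest from the median of hsa-miR-10400-5p, these fell to 0.55, 0.61 and 0.42. The weakest pairs were hsa-miR-4516 with hsa-miR-7704 (r = 0.14, permutation p = 0.673, adjusted 0.873; rho = 0.23, p = 0.501, adjusted 0.839) and hsa-miR-3960 with hsa-miR-7704 (r = 0.16, permutation p = 0.622, adjusted 0.841; rho = 0.10, p = 0.776, adjusted 0.929). Without the 2 samples farthest from the median of hsa-miR-4516, its r with hsa-miR-7704 turned to -0.088. Without the 2 farthest from the median of hsa-miR-3960, its r with hsa-miR-7704 was 0.35. Over the other 4 pairs r ran from 0.31 to 0.55, with adjusted permutation p of 0.411 to 0.702.

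Most of these values were higher once differences between groups were removed. As a description, r of the deviations from the group means was 0.95 for hsa-miR-4488 with hsa-miR-10400-5p, 0.91 for hsa-miR-4516 with hsa-miR-10400-5p and 0.86 for hsa-miR-4488 with hsa-miR-4516. The median over the 10 pairs was 0.83, beside 0.01 over all 1128 pairs. Values of r also spread wider over all 1128 pairs, with an SD of 0.476 beside 0.401 before the group means were removed. In pairs of a member with a non-member the median moved from -0.19 to -0.31. Larger values are therefore not particular to the member pairs. The 4 pairs with hsa-miR-3960 had the lowest values, from 0.19 to 0.60. Few samples stand behind these values, since 4 group means were removed from 11 samples.

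**Figure D4:**
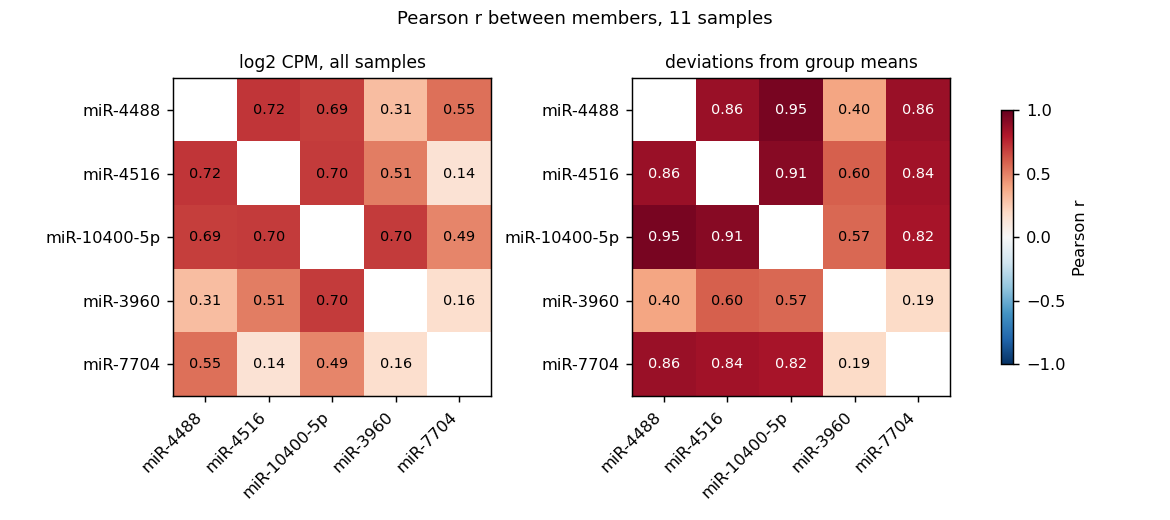
Pearson r between the 5 members over 11 samples, on log2 CPM (left) and as deviations from the group means (right), with red for positive r. Every value is above 0, the highest on the right being 0.95 for hsa-miR-4488 with hsa-miR-10400-5p and the lowest 0.19 for hsa-miR-3960 with hsa-miR-7704.

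The proportions among the members differed between libraries even so. The count of hsa-miR-10400-5p per count of hsa-miR-4516 was 0.275, 0.226 and 0.247 in cisplatin-treated parental libraries. It was 2.11, 0.400 and 0.889 in untreated parental libraries, 0.846, 1.54 and 0.844 in untreated CSC-like libraries, and 0.9, 0.8 and 0.875 in cisplatin-treated CSC-like libraries. Cisplatin-treated parental libraries thus lay below all others in this ratio, which was chosen after its values were seen and was not tested. The count of hsa-miR-4488 per count of hsa-miR-4516 ran from 0.450 to 6 within the untreated parental group alone, so the proportion was not fixed.

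Among the 43 non-members tested, those most like the summed members were hsa-miR-423-5p (r = 0.60), hsa-miR-99b-5p (r = 0.56) and hsa-miR-4508 (r = 0.56), measured as Pearson r over 11 samples between log2 CPM and the log2 ratio of member to non-member counts. hsa-miR-4508 is 94.1% G and C and had 0 to 28 counts per library. hsa-miR-423-5p had 1 to 50 counts, 1 to 10 in the CSC-like libraries. hsa-miR-99b-5p had 1 to 73, and 1 to 6 in the CSC-like libraries. Those least like the summed members were hsa-miR-27b-3p (r = -0.76, 1 to 65 counts) and the let-7 members hsa-let-7g-5p (r = -0.73) and hsa-let-7i-5p (r = -0.69), whose family is linked to differentiation. Some of these r values thus rest partly on very low counts. hsa-let-7i-5p held 0.425% of counts in untreated parental replicate 1, where the members held 19.3%, and 15.5% in replicate 2, where they held 2.27%. CPM was also taken over non-members only, so that both sides of r share the non-member total. That gave r of 0.70, 0.61 and 0.61 for the first 3 and -0.70, -0.69 and -0.64 for the last 3. On that scale hsa-miR-532-5p (r = 0.61) came just above hsa-miR-4508 and hsa-miR-99b-5p, so the order below hsa-miR-423-5p depends on the denominator. Over the 43 non-members, r to the members was higher at higher G and C content, given as a description (Spearman rho = 0.50, and 0.46 with the non-member denominator). The median r was 0.03 in the 17 with at least 50% G and C and -0.40 in the 26 with less. These points share their libraries and are not independent.

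**Figure D5:**
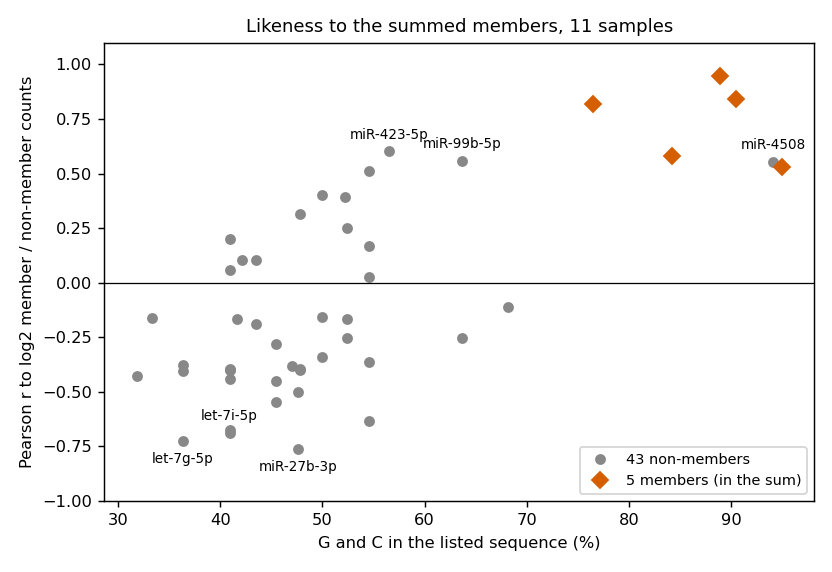
Pearson r over 11 samples between each tested entry and the log2 ratio of member to non-member counts (vertical axis), against the G and C content of its sequence (horizontal axis, %). Grey non-members lie higher on the whole at higher G and C content, and hsa-miR-4508, at 94.1% G and C, lies at 0.56 beside the orange members, which are part of the sum themselves.

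The other listed entries of at least 70% G and C were few and low. The 7 entries (hsa-miR-1307-3p, hsa-miR-1307-5p, hsa-miR-3195, hsa-miR-3615, hsa-miR-4497, hsa-miR-4508 and hsa-miR-92b-5p) held 0.119% to 0.952% of a library together. Only hsa-miR-4508 passed the filter, in 2 comparisons, with 0 calls. Of a list of 48 other catalogue names that overlap or resemble structured RNA, which also holds hsa-miR-4497 and hsa-miR-4508, 1 to 4 passed the filter in a comparison. Among these, hsa-miR-3135b was higher with cisplatin in exosomes of CSC-like cells. It had 0, 7 and 5 counts untreated and 27, 79 and 76 with cisplatin (log2 fold change 4.67 ± 0.878, edgeR adjusted p = 2.38e-05). That call was lost with the replicate block (adjusted p = 0.230) and without untreated CSC-like replicate 1 or replicate 3 (edgeR adjusted p = 0.0545 and 0.412), with log2 fold changes of 5.15, 4.39 and 5.07, and was kept in 12 of 15 alternatives. hsa-miR-3135b was also higher between the cisplatin-treated populations (log2 fold change 5.45 ± 0.895, edgeR adjusted p = 0.000617; 15 of 15 alternatives) and in the interaction (5.09 ± 1.495, adjusted p = 0.0358; 10 of 20 alternatives). Without untreated parental replicate 2 the difference in the interaction was 2.88 ± 2.00 (edgeR adjusted p = 0.465), the smallest over its alternatives. No other name of the list passed in any of the 5 comparisons.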

How the data were processed

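Small RNA from exosomes was sequenced in 12 samples of 4 groups. Per the labels' protocols, an exosome RNA kit and a small RNA library kit were used. cutadapt and FastQC are named in the submitters' processing notes. The sources used here give no aligner, mismatch limit, genome build or miRNA release. Per the file headers, the deposited tables hold raw counts per mature miRNA, a score, which is the authors' signed fold change between weighted proportions, and an unadjusted p-value from the authors' test on proportions. One line per file was not analysed here. Each listed entry has counts in both groups of its table, so a complete gain or loss cannot be seen.

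Members and lists were chosen with earlier results of these data known. All 7 members are named. The 3 non-members most and the 3 least correlated with the members are named, as are calls within both lists. Counts were tested with edgeR 4.0.16 in R 4.3.3 (filterByExpr, minimum count 10 and minimum total 15; TMM; quasi-likelihood test), with Benjamini-Hochberg adjustment over all entries of a fit and a threshold of 0.05. Fits across cell populations used the 98 entries in both tables. SEs come from the fold change and F. Alternatives included DESeq2 1.42.0. Correlations used 100000 permutations (two-sided), adjusted over 1128 pairs. Intervals are Clopper-Pearson. The scripts were tested on simulated data. RefSeq (GRCh38) gave positions. The sequence and position of hsa-miR-3960 are not reported here. Depth ran from 429 to 6622 counts, which limits precision for entries with few counts.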

Additional observations from a re-analysis of the deposited data

How the results depend on the processing

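The members' counts of calls stayed at 0 in every comparison under every alternative run, except for hsa-miR-7704. In parental cells 1 member passed with DESeq2's Wald test, where 4 of 37 entries were called. There 1 also passed in the contrast from 4 groups, where 7 of 48 were called. With a replicate left out in parental cells, 0 to 1 passed. The 1 came without untreated replicate 2, where 8 of 43 were called. Between the untreated populations 1 passed in the contrast from 4 groups, where 5 of 48 were called. Leaving out 1 library moved the mean summed share from 9.60% to between 4.73% and 13.3% in untreated and from 8.08% to between 5.16% and 9.57% in cisplatin-treated parental libraries, and from 12.3% to between 7.37% and 15.1% and from 10.6% to between 2.95% and 10.8% in the CSC-like groups; 0 member pairs were called in every correlation setting. Of 24 fold changes, 13 kept their sign under all alternatives run and 11 did not, and in each of the 11 no value passed the test. The cause was not tested. For hsa-miR-4488, the log2 fold change with cisplatin in parental cells turned to 0.015 with library totals and 0.29 with the replicate block (leave-one-out range -1.34 to 1.04), and in CSC-like cells to -0.20 without the filter, -0.071 with at least 15 counts, -0.22 with the replicate block and -0.033 with non-member normalization (-1.32 to 1.29). Its interaction turned to -1.11 with the replicate block (-1.76 to 2.29). Between untreated populations it ranged from -1.59 to 0.68, and between cisplatin-treated ones it turned to -0.34 without the filter, -0.51 with the replicate block and -0.14 with libraries apart (-1.51 to 1.25). hsa-miR-4516 turned to -0.059 in parental cells in the contrast from 4 groups. For hsa-miR-3960, the interaction turned to -0.042 with library totals and -0.080 with the replicate block (-0.57 to 1.07), the untreated comparison to 0.17 with library totals, 0.10 without the filter and 0.00064 with the replicate block (-1.13 to 0.54), and the cisplatin-treated one to -0.059 without the filter and -0.027 with at least 15 counts (-0.28 to 0.46). For hsa-miR-10400-5p, the interaction turned to -0.60 with the replicate block (-1.23 to 1.79) and the untreated comparison to -0.032 in the contrast from 4 groups (-0.54 to 1.68). The r of hsa-miR-3960 and hsa-miR-7704 ranged from -0.086 to 0.55 when a replicate was left out. With group deviations, the median r moved from 0.53 to 0.83. Library totals in place of TMM moved the median log2 fold change of all entries from -0.27 to 0.01 in parental cells, from 0.36 to -0.28 in the interaction and from -0.32 to 0.14 between untreated populations. Replicate numbers were not used to pair samples in the main fits, and the block changed no member's call. Depth limits hsa-miR-10396a-5p and hsa-miR-10396b-5p most, which had 6 and 3 counts in all.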
